A study of Mus musculus with 10 samples.

Results

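The mitochondrial ribosomal protein genes were taken as all genes whose symbol on the array starts with Mrpl or Mrps followed by a number and that had a probe detected (detection p of 0.05 or less) on 5 or more of the 10 arrays. They numbered 73 of 9401 named genes, 46 with Mrpl symbols for the large subunit and 27 with Mrps symbols, most of which encode the small subunit. The probe with the highest mean signal stood for each gene. Of 78 coding genes in the RefSeq table whose symbols fit the same pattern, Mrpl19, Mrpl32, Mrpl41, Mrps14 and Mrps36 had no named probe that passed this detection limit and were not analysed.

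The 10 libraries came from G-CCE cells, a mouse embryonic stem cell (mESC) line, in 5 lines at 2 time points with 1 library each. MMTR, the protein encoded by Dmap1, is a subunit of the Tip60-p400 chromatin complex. WT cells are labelled as not transfected, while the study's text also speaks of mock cells, MMTR KD cells carried a lentiviral shRNA against MMTR, and the other 3 lines were transfected with plasmids for Flag-tagged MMTR, in full length (MMTR-F) or as its N-terminal (MMTR-N) or C-terminal (MMTR-C) fragment. All lines were grown in serum medium, with LIF (leukemia inhibitory factor) at d0 and without LIF for 3 days at d3. Per the paper's methods, undifferentiated cells grew on gelatin, while differentiation used hanging drops, whose aggregates went into bacterial dishes on day 2. Loss of LIF and aggregation can thus not be told apart in a change between the days. How many independent clones stood behind a line, and whether the lines received empty vectors, is not given for these libraries, so a line and the effect of its construct cannot be told apart.

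Values are log2 signals after quantile normalization, and a difference of 1 is a factor of 2. The change between the days was tested with limma over all 17775 probes kept, with the 5 lines as the replicates of a day, and p-values were adjusted with Benjamini-Hochberg over all those probes (threshold 0.05). These p-values measure the spread between lines, not between separate cultures of a line. The number of arrays, 10, limits the precision. Dmap1 itself was 10.59 in WT, 12.00 in MMTR-C, 10.52 in MMTR-N, 10.48 in MMTR-F and 10.78 in MMTR KD at d0, and 10.42, 12.00, 10.34, 10.18 and 10.38 in the same order at d3. At d0 the line labelled MMTR KD thus lay above WT in Dmap1 signal and at d3 slightly below it, and MMTR-C was the highest line on each day, while the position of this probe relative to the shRNA site and the plasmids is not known here. Of 10 mESC markers, all 10 were kept, 6 fell between the days, 1 rose (Sall4, 0.36, adjusted p = 0.04 in limma) and 3 did not pass, against 24.7% of all probes called lower and 24.0% called higher. Of the fibroblast markers 2 of 10 were kept (Thy1 and Vim) and of the endoderm markers 3 of 9 (Dab2, Lama1 and Sox7). Of the macrophage markers 1 was kept (Csf1r), out of 10 listed symbols that include older names of the same genes. Col1a1, Ptprc, Gata4 and Sox17 had no kept probe. The summed linear signal of the mESC markers was 121917 to 128820 at d0 and 66592 to 108740 at d3, that of the endoderm markers 3213 to 6873 and 1511 to 3971, that of the fibroblast markers 1945 to 2484 and 1453 to 1782 and that of Csf1r 275 to 320 and 288 to 338. Among the endoderm markers Dab2 rose (1.10) while Lama1 (-2.75) and Sox7 (-0.86) fell between the days. Of the fibroblast markers Thy1 rose (0.54) and Vim fell (-1.27), so these sums do not give the direction of each gene. The part of a change in cell make-up in the values below was not tested, and in bulk RNA fewer cells of a type and less RNA per cell cannot be told apart. The median raw signal of an array was 218 to 244 at d0 and 337 to 347 at d3, so raw brightness moved with the day. Whether the arrays of the 2 days were processed apart is not given, and the part of brightness in the values below was not tested.

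Mitochondrial ribosomes translate the few messages of the mitochondrial genome, which encode core subunits of the respiratory chain. Their RNAs are mitochondrial products, whereas every protein of both subunits is encoded in the nucleus, made in the cytosol and imported. Many members have counterparts in bacterial ribosomes, and others were added during the evolution of mitochondria. Promoters of genes for mitochondrial proteins are known for sites of NRF1, of ETS factors such as GABP (NRF2) and of YY1.

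To show which regulatory sequence lies upstream of the members that moved most, RefSeq promoters (GRCm38.p6) were read for those with an entry, which were 65 of 73. Mrps34, Mrpl38 and Mrpl54, which are described below, had none. Each line gives 150 bases 5′ to 3′, from 100 before the start of the transcript to 50 after it, on the strand of the gene. Capitals mark matches on either strand to the ETS motif CCGGAAG, the E-box CACGTG, the YY1 motif AANATGGCG or the NRF1 motif GCGCATGCG.
Mrpl20, chr4:155802778-155802927, plus strand, 1 E-box: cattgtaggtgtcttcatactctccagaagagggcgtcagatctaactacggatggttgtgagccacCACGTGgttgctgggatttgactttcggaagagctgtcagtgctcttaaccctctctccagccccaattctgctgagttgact
Mrpl52, chr14:54426809-54426958, plus strand, 2 ETS motifs: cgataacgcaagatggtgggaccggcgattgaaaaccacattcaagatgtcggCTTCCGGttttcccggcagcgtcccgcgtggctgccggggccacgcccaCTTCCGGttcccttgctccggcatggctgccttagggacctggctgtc
Mrpl39, chr16:84735195-84735344, minus strand, no match: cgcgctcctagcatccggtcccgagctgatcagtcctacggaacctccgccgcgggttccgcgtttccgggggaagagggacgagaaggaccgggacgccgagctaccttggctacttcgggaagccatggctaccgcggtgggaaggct
Mrpl3, chr9:105053168-105053317, plus strand, 1 ETS motif: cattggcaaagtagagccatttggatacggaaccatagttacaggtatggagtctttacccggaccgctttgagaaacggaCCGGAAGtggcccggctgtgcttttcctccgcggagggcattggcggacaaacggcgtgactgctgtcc
Mrps21, chr3:95871465-95871614, minus strand, 1 ETS motif: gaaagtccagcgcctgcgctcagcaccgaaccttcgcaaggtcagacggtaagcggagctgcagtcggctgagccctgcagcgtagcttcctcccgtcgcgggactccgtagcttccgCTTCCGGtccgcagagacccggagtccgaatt
Mrps30, chr13:118387203-118387352, minus strand, 1 YY1 motif: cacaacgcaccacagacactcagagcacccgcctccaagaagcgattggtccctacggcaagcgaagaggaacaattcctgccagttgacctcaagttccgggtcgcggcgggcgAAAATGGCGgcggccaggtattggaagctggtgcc
Mrpl34, chr8:71464826-71464975, plus strand, 1 ETS motif: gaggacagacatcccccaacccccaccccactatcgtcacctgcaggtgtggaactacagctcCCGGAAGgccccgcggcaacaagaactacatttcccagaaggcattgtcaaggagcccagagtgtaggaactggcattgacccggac
Mrpl36, chr13:73330909-73331058, plus strand, 1 E-box and 1 YY1 motif: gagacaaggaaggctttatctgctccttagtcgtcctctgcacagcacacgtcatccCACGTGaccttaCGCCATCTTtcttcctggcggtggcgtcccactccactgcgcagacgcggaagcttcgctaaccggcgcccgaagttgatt
Mrpl20, Mrpl52 and Mrpl39 had the largest fitted falls between d0 and d3, Mrps21, Mrpl3 and Mrps30 were among the largest rises, and Mrpl34 and Mrpl36 were lower in the line labelled MMTR KD. Over the full stretch of the table (250 bases before to 50 after the start), the ETS motif was present for 26 of 65 members with an entry (40.0%), against 9.93% of all 27025 genes with a promoter and 21.5% of the 7653 named on this array. The YY1 motif was found for 16.9% of members against 2.76% and 6.35%, the NRF1 motif for 9.23% against 1.95% and 4.44%, and the E-box for 7.69% against 8.09% and 12.3%. Mrpl39, which shows no match in the bases printed, has an NRF1 match in the full stretch. No motif contains another, and a match is a stretch of letters, not a measured site. The ETS motif was present for 11 of 29 members that fell, 2 of 6 that rose and 13 of 30 that did not pass the test, so that the shares were 37.9%, 33.3% and 43.3%. Median GC content was 58.7% in members' promoters and 52.7% in all.

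The mean log2 signal of the chosen probes over the 10 libraries ran from 8.44 to 13.3, and since probes differ in how they bind, levels were compared between libraries and not between genes. The chosen probe was detected on all 10 arrays for 71 members. Mrpl39 was detected on 7 arrays and Mrps27 on 9, so no member sat at the limit of 5 arrays. Over the 10 libraries a member spanned 0.57 log2 units at the median, and 7 members spanned 1 or more.

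Between d0 and d3, 10 members rose, 31 fell and 32 did not pass the test. Of all probes, 24.0% were called higher and 24.7% lower, while the members stood at 13.7% and 42.5%. The median change of the members was -0.14 (quartiles -0.30 and 0.09) and that of all probes 0.00. Most changes were small, since the median standard error was 0.064 and 6 members changed by 0.5 or more, all of them falls. Of the 31 that fell, 29 were lower in all 5 lines, the exceptions being Mrpl14 and Mrps6 with 4 of 5, and of the 10 that rose, 9 were higher in all 5 lines. The lines are the replicates of the test, so this agreement is largely part of the call and not separate support. In 15 members every d3 library lay below every d0 library, against 13.9% of all probes, and Mrpl3 was the 1 member with every d3 library above every d0 library, against 12.5%. The median change of the members was -0.13 in WT, -0.15 in MMTR-C, -0.12 in MMTR-N, -0.07 in MMTR-F and -0.13 in MMTR KD, with between 45 and 52 of 73 members lower at d3 in each line. The median change of all probes in a line lay between -0.01 and 0.00.

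**Figure D1:**
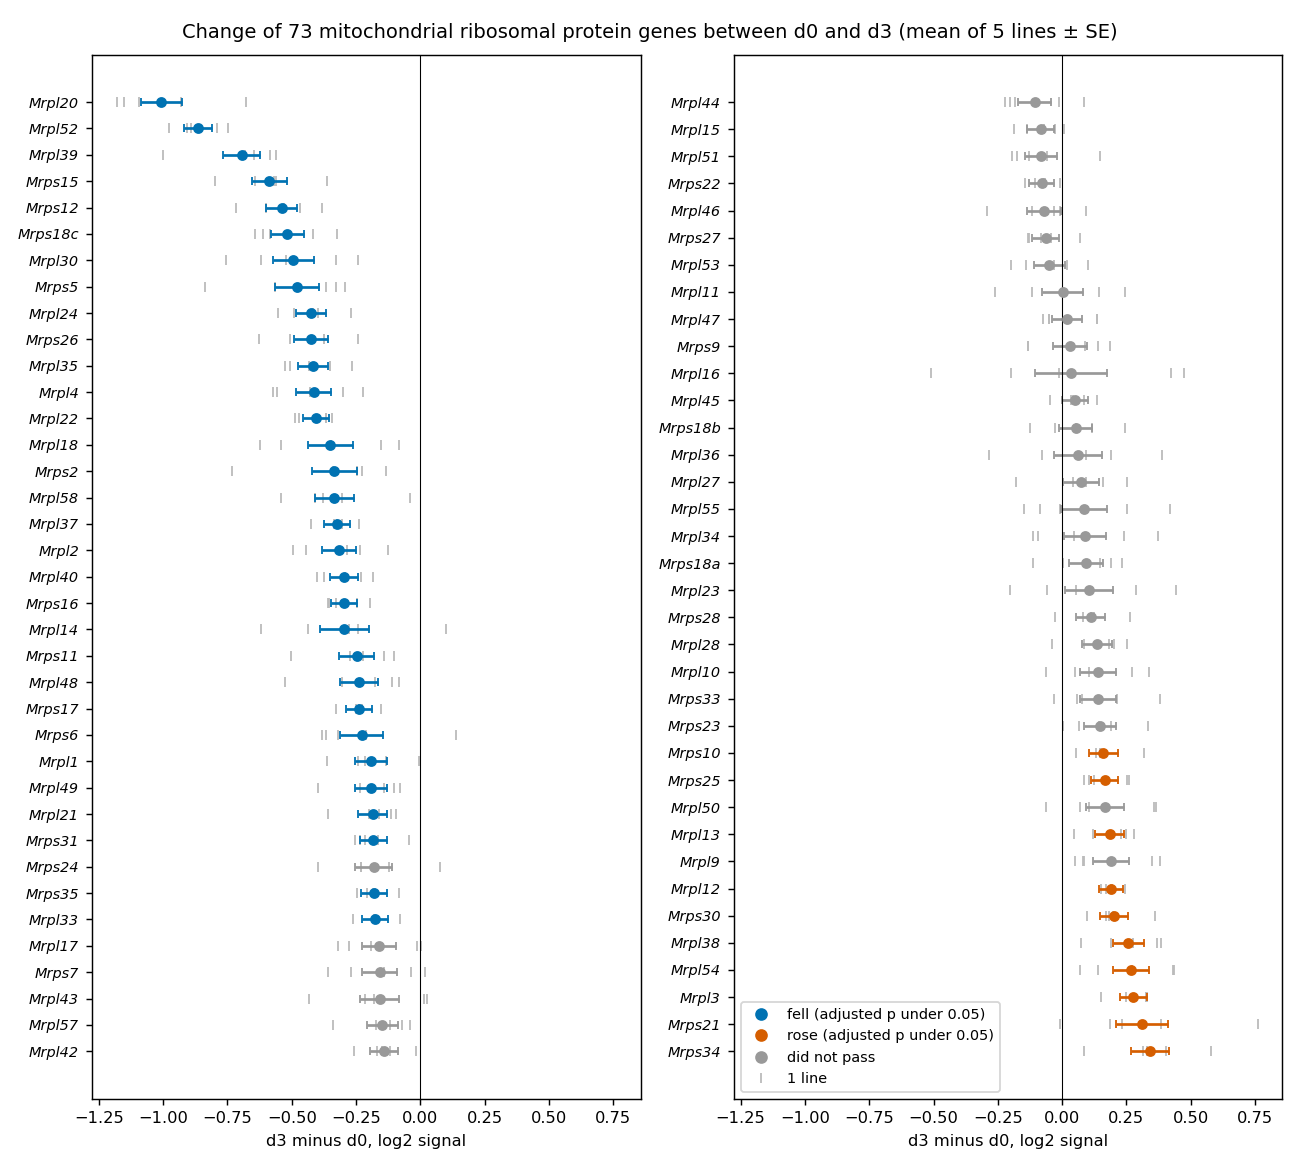
Change of each of the 73 members between d0 and d3 (x axis, log2 signal), as the mean over 5 lines ± the standard error of the limma fit, with a grey tick for each line and members ordered from the largest fall to the largest rise. Falls reach -1.01 for Mrpl20, and the largest rise is 0.34 for Mrps34.

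How many members rose depended on the scaling of the arrays. When arrays were scaled to a common median in place of quantile normalization, 0 members rose and 43 fell, including all 31 falls above, and of the 10 rises 6 kept a value above 0 and 4 turned below it. The median change of the members was then -0.36, while that of all probes was 0.04. With normexp background correction before the normalization 4 rose and 23 fell. The shares of all probes called under these settings are not given here, so the counts have no background beside them. The members are bright, with 86.2% of kept probes below the median member (mean log2 signal 11.42, against a median of 9.14 for all kept probes). The part of this in the counts was not tested. Before normalization the median raw signal of the members was 2320 to 3763 at d0 and 2299 to 3025 at d3. Of all 29 members above 0 after quantile normalization, 21 were below 0 after median scaling, and 2 of those passed as falls there. The rises of members below were called after quantile normalization and not after median scaling, and their median-scaled values are given with them.

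**Figure D2:**
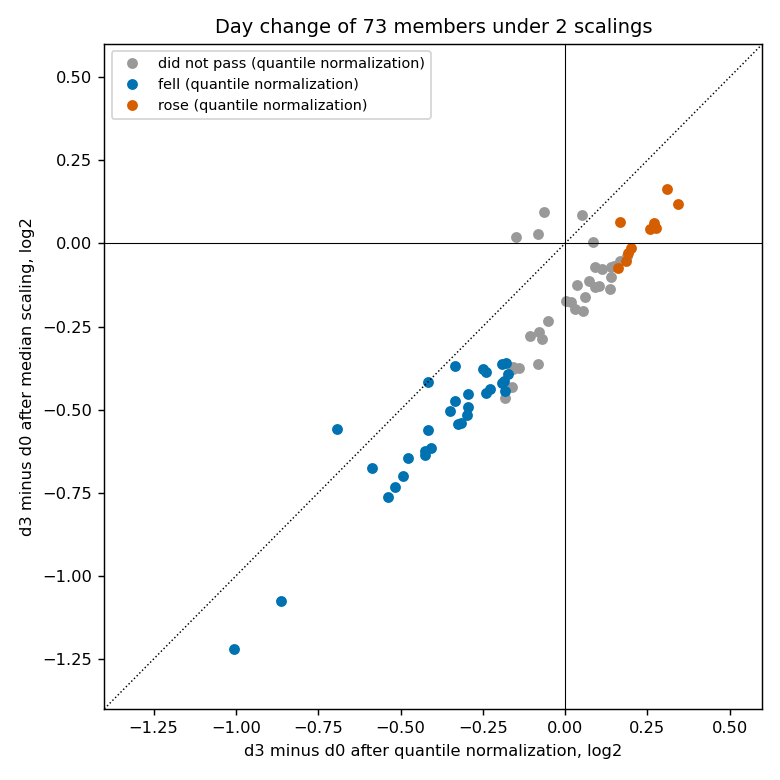
Change of the 73 members between d0 and d3 after quantile normalization (x axis, log2) and after scaling each array to a common median (y axis, log2), coloured by the call after quantile normalization, with the dotted line marking equal values. Most points lie below the dotted line, and the 10 rises lie close to 0 on the y axis, from -0.07 to 0.16.

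In the large subunit the largest fitted fall after quantile normalization was that of Mrpl20, whose bacterial counterpart binds the large ribosomal RNA early in assembly. Its log2 signal at d0 was 12.47 in WT, 12.14 in MMTR-C, 12.46 in MMTR-N, 12.31 in MMTR-F and 12.57 in MMTR KD. The same libraries at d3 held 11.54 in WT, 11.46 in MMTR-C, 11.37 in MMTR-N, 11.16 in MMTR-F and 11.39 in MMTR KD. All 5 libraries at d3 lay below all 5 at d0, a change of -1.01 ± 0.08 (SE), which is 2.01-fold lower, with an adjusted p of 7.2e-05 in limma. Mrpl52, a large-subunit protein with no bacterial counterpart, was 12.12 in WT, 12.30 in MMTR-C, 11.91 in MMTR-N, 12.05 in MMTR-F and 12.16 in MMTR KD at d0. Its d3 values were 11.37 in WT, 11.33 in MMTR-C, 11.00 in MMTR-N, 11.16 in MMTR-F and 11.37 in MMTR KD. The groups again did not overlap, and the change was -0.86 ± 0.05 (SE), adjusted p = 3.27e-05, or 1.82-fold. Mrpl39, a mitochondria-specific protein placed at the peptide exit tunnel, was 8.90 in WT, 8.80 in MMTR-C, 8.92 in MMTR-N, 9.02 in MMTR-F and 9.11 in MMTR KD at d0. At d3 it was 8.34 in WT and 8.37 in MMTR-F and was not detected in the other 3 lines. The fitted change was -0.69 ± 0.07 (SE), adjusted p = 0.000224, and with normexp background correction -1.98 (-1.08 for Mrpl20), so that its place among the falls depends on the treatment of the background. Against the lowest detected signal of the same array, it was at least 1.78-fold lower in MMTR KD, at least 1.44-fold lower in MMTR-C and at least 1.58-fold lower in MMTR-N.

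Other falls in the large subunit were smaller. Mrpl30, a counterpart of a bacterial protein, was 11.25 to 11.96 at d0 and 11.01 to 11.44 at d3, and the groups overlapped although each line fell (-0.49 ± 0.08 (SE), adjusted p = 0.0017). Mrpl24 and Mrpl22, whose bacterial counterparts lie at the tunnel through which the new protein leaves, fell, Mrpl24 at -0.43 ± 0.06 (SE), adjusted p = 0.000683, and Mrpl22 at -0.41 ± 0.05 (SE), adjusted p = 0.000489. Mrpl35 fell, at -0.42 ± 0.06 (SE), Mrpl18 at -0.35 ± 0.09 (SE), Mrpl37 at -0.33 ± 0.05 (SE) and Mrpl40 at -0.30 ± 0.05 (SE). Mrpl58, also known as ICT1, which releases stalled chains from the ribosome, fell, at -0.33 ± 0.07 (SE), adjusted p = 0.00709. Members of the same subunit without a call included Mrpl44, an RNase III-like protein (-0.11 ± 0.06 (SE), adjusted p = 0.194), and Mrpl45, which anchors the ribosome to the inner membrane (0.05 ± 0.05 (SE), adjusted p = 0.435). After median scaling Mrpl44 passed as a fall, at -0.28 (adjusted p = 0.00595 in limma).

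In the small subunit, Mrps15, a counterpart of a bacterial protein that binds the small ribosomal RNA, was 10.24 in WT, 9.93 in MMTR-C, 10.19 in MMTR-N, 9.85 in MMTR-F and 9.85 in MMTR KD at d0. The d3 values were 9.60 in WT, 9.37 in MMTR-C, 9.39 in MMTR-N, 9.29 in MMTR-F and 9.48 in MMTR KD, so that the groups did not overlap (-0.59 ± 0.07 (SE), adjusted p = 0.000343). Mrps12, a protein of the decoding centre and the site of streptomycin resistance mutations in bacteria, was 11.85 to 12.30 at d0 and 11.45 to 11.70 at d3 (-0.54 ± 0.06 (SE), adjusted p = 0.000316). Mrps5, also near the decoding centre, was 10.56 to 11.16 and 10.13 to 10.70, with overlapping groups (-0.48 ± 0.09 (SE), adjusted p = 0.00252). Mrps26, a mitochondria-specific protein, fell, at -0.43 ± 0.07 (SE), adjusted p = 0.00125. A second, dimmer probe did not pass for Mrps26 (-0.04, adjusted p = 0.677 in limma) or for Mrps5 (-0.02, adjusted p = 0.832), while those of Mrps12 and Mrps15 passed as falls (-0.19 and -0.25). Mrps16, mutated in a human combined respiratory chain deficiency, was 11.23 to 11.49 at d0 and 10.94 to 11.14 at d3, and fell in every line (-0.30 ± 0.05 (SE), adjusted p = 0.0023). Mrps2 fell, at -0.33 ± 0.09 (SE), adjusted p = 0.0138. Mrps22, a mitochondria-specific protein mutated in a human respiratory chain deficiency, was 10.88 to 11.14 at d0 and 10.73 to 11.13 at d3 and did not pass, although it was lower at d3 in all 5 lines (-0.08 ± 0.05 (SE), adjusted p = 0.214), and after median scaling it passed as a fall at -0.27 (adjusted p = 0.0048 in limma).

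Of the S18 paralogs, nuclear genes that encode related proteins placed in different parts of the ribosome, Mrps18c fell and the other two did not pass the test. Mrps18c was 12.49 in WT, 12.11 in MMTR-C, 12.40 in MMTR-N, 12.19 in MMTR-F and 12.40 in MMTR KD at d0. Its values at d3 were 11.88 in WT, 11.70 in MMTR-C, 11.76 in MMTR-N, 11.86 in MMTR-F and 11.82 in MMTR KD, with no overlap (-0.52 ± 0.06 (SE), adjusted p = 0.000454). Mrps18a changed by 0.09 ± 0.06 (SE), adjusted p = 0.268, and Mrps18b by 0.05 ± 0.06 (SE), adjusted p = 0.516. After median scaling both lay below 0, Mrps18a at -0.07 without passing and Mrps18b at -0.20, where it passed as a fall (adjusted p = 0.0438 in limma). Whether Mrps18c differs from its paralogs was not tested.

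The largest rise after quantile normalization was that of Mrps34, a small-subunit protein mutated in Leigh syndrome in people. It was 11.80 in WT, 11.62 in MMTR-C, 11.64 in MMTR-N, 11.31 in MMTR-F and 12.01 in MMTR KD at d0. Signals at d3 were 12.12 in WT, 12.02 in MMTR-C, 11.97 in MMTR-N, 11.89 in MMTR-F and 12.09 in MMTR KD. Each line was higher at d3, MMTR KD by the least, and the groups overlapped because MMTR KD at d0 lay above MMTR-F and MMTR-N at d3 (0.34 ± 0.07 (SE), adjusted p = 0.00579, median-scaled change 0.12). Mrpl3, whose bacterial counterpart reaches toward the peptidyl transferase centre, was 11.89 in WT, 11.78 in MMTR-C, 11.76 in MMTR-N, 11.80 in MMTR-F and 11.84 in MMTR KD at d0. By d3 it stood at 12.04 in WT, 12.11 in MMTR-C, 12.09 in MMTR-N, 12.12 in MMTR-F and 12.09 in MMTR KD. Its 2 groups were tight and did not overlap (0.28 ± 0.05 (SE), adjusted p = 0.00341, median-scaled change 0.04), and its second probe changed by -0.07 and did not pass.

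Mrps21 was 10.60 in WT, 10.32 in MMTR-C, 9.96 in MMTR-N, 9.95 in MMTR-F and 9.83 in MMTR KD at d0. Its d3 signals were 10.59 in WT, 10.55 in MMTR-C, 10.34 in MMTR-N, 10.14 in MMTR-F and 10.58 in MMTR KD. It was higher in 4 of 5 lines, and the rise was 0.76 in MMTR KD and -0.01 in WT (0.31 ± 0.10 (SE), adjusted p = 0.0349, median-scaled change 0.16), and without MMTR KD it was 0.20 with an adjusted p of 0.0757. Mrpl38, a protein of the central protuberance, rose by 0.26 ± 0.06 (SE), adjusted p = 0.00964, and Mrpl54 by 0.27 ± 0.07 (SE), adjusted p = 0.0137. Mrps30, which despite its symbol belongs to the large subunit, rose by 0.20 ± 0.06 (SE), adjusted p = 0.0179, Mrpl12, the stalk protein that recruits translation factors, by 0.19 ± 0.05 (SE), adjusted p = 0.0117, and Mrpl13 by 0.18 ± 0.06 (SE), adjusted p = 0.0258. After median scaling these 3 were at -0.01, -0.03 and -0.05, and Mrpl38 and Mrpl54 at 0.04 and 0.06. The other rises were Mrps25 at 0.17 ± 0.05 (SE), with a median-scaled change of 0.06, and Mrps10 at 0.16 ± 0.06 (SE), which turned to -0.07 after median scaling.

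**Figure D3:**
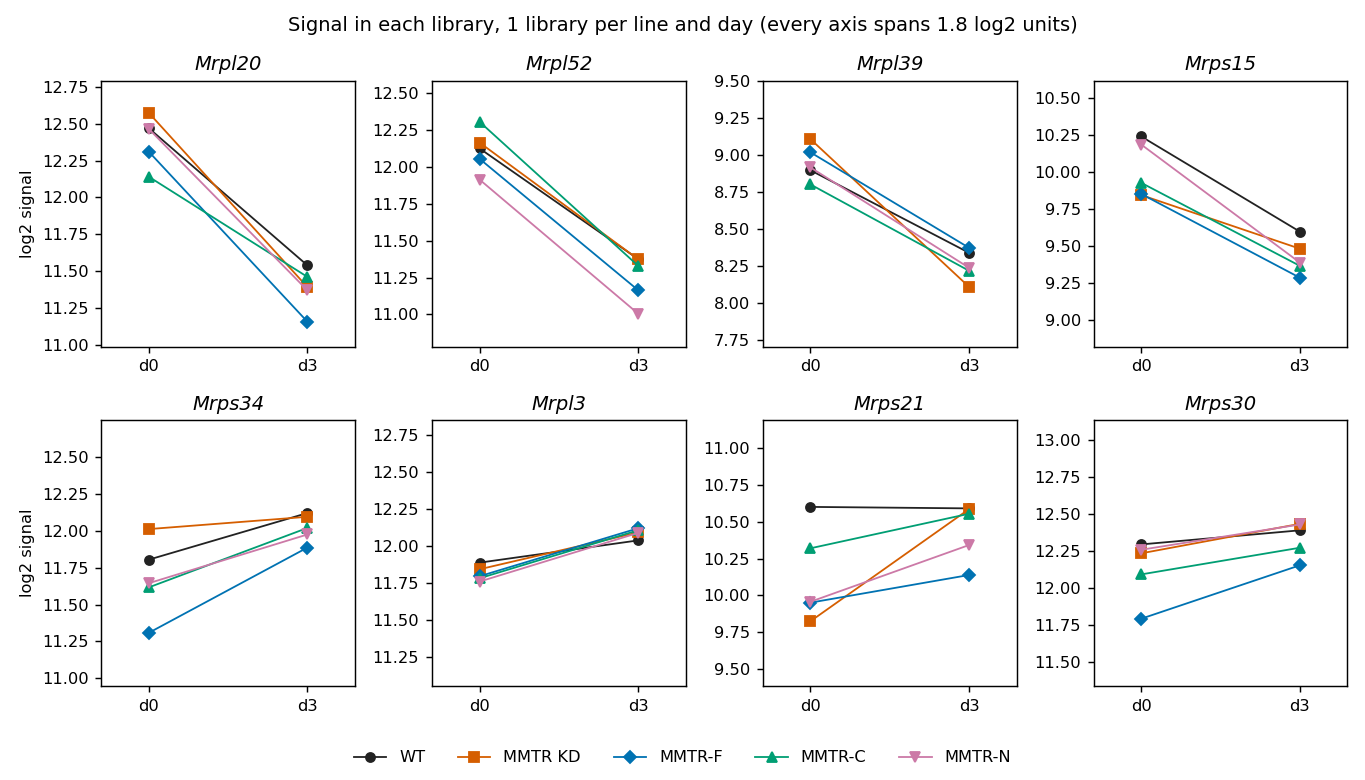
Log2 signal (y axis) of 8 members in each of the 10 libraries at d0 and d3 (x axis), with a line joining the 2 libraries of each cell line and every y axis spanning 1.8 log2 units. The 4 members of the top row fell in all 5 lines without overlap of the days, and of the 4 in the bottom row only Mrpl3 shows none.

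The counts by subunit and position stand against 24.0% of all probes called higher and 24.7% called lower. By subunit, 5 of 46 Mrpl genes rose, 19 fell and 22 did not pass (median -0.12), and of 27 Mrps genes 5 rose, 12 fell and 10 did not pass (median -0.16). Of 15 measured small-subunit members with a bacterial counterpart 2 rose and 9 fell (median -0.24), and of 27 such large-subunit members 3 rose and 12 fell (median -0.08). Among mitochondria-specific members, 3 of 17 rose and 6 fell in the large subunit, with Mrps30 counted there, and 2 of 9 rose and 3 fell in the small subunit. The shares that fell were 44.4% and 60.0% of members with a bacterial counterpart and 35.3% and 33.3% of mitochondria-specific members, in the large and the small subunit. Some members, among them Mrpl58, which fell, were placed in neither class, so these shares are those of the genes listed. By position, where groups are small, 0 of 8 members at the exit tunnel rose and 3 fell (37.5%), 1 of 6 in the central protuberance rose and 3 fell (Mrpl18, Mrpl40 and Mrpl48), and of the stalk proteins Mrpl10, Mrpl11 and Mrpl12 the last rose and none fell, although a second probe of Mrpl10, almost as bright, passed as a fall at -0.32 (adjusted p = 0.0018 in limma). Of 5 measured proteins of the decoding centre and head of the small subunit 1 rose (Mrps10) and 2 fell (Mrps5 and Mrps12). Of 11 measured members on a chosen list of genes mutated in human mitochondrial disease, which may not be complete, 4 rose (Mrpl3, Mrpl12, Mrps25 and Mrps34) and 2 fell (Mrps2 and Mrps16), with a median of 0.11, and after median scaling none of the 4 rises was called. A further probe of Mrps25 passed as a rise at 0.25 and another as a fall at -0.32 (adjusted p = 0.0115 and 0.014 in limma). Differences between these groups were not tested.

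Several probes for 1 gene did not always read alike. Of 25 members with more than 1 kept probe, all probes of the gene moved in the same direction in 14 and in different directions in 11. In Mrpl13, Mrpl15 and Mrps25, 1 probe was called as a rise and another as a fall. The bright probe of Mrpl13 changed by 0.18 and its dim probe by -0.63, so the direction of this gene depends on the probe. Mrpl20 and Mrpl52 each had 1 kept probe.

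Other genes of mitochondrial translation were counted as whole lists, against the same shares of all probes (24.0% higher and 24.7% lower). Of 15 measured translation factors 1 rose and 6 fell (6.67% and 40.0%). The elongation factor Gfm1 fell, at -0.47 ± 0.07 (SE), adjusted p = 0.000898, the release factor Mtrf1 at -0.50 ± 0.07 (SE), adjusted p = 0.00107 and the peptide deformylase Pdf at -0.45 ± 0.07 (SE), adjusted p = 0.00111, whereas the initiation factor Mtif3 rose by 0.42 ± 0.09 (SE), adjusted p = 0.00523 (median-scaled change 0.33). Of 16 mitochondrial tRNA synthetases and related amidotransferase subunits 1 rose and 6 fell (6.25% and 37.5%), led by Rars2 at -0.55 ± 0.06 (SE), Cars2 at -0.50 ± 0.07 (SE), Aars2 at -0.42 ± 0.05 (SE) and Mars2 at -0.39 ± 0.05 (SE), the synthetases for arginine, cysteine, alanine and methionine.

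Of 21 assembly factors 5 rose and 4 fell (23.8% and 19.0%), near the shares of all probes. Rbfa, which matures the small subunit, fell, at -0.88 ± 0.07 (SE), adjusted p = 8.45e-05, the rRNA methyltransferases Tfb1m and Nsun4 at -0.54 ± 0.10 (SE) and -0.46 ± 0.06 (SE), and Mterf4, the partner of Nsun4, rose by 0.33 ± 0.07 (SE), adjusted p = 0.00736 (median-scaled change 0.11). Of mitoribosomal proteins whose symbols lie outside the Mrpl and Mrps series, Dap3 fell, at -0.32 ± 0.07 (SE), Chchd1 rose by 0.33 ± 0.06 (SE) and Ndufab1, also a respiratory complex I subunit, rose by 0.19 ± 0.06 (SE), of 5 measured. After median scaling Chchd1 was at 0.08 and Ndufab1 at -0.09. Of 13 genes of mitochondrial transcription and genome maintenance none rose and 4 fell, 30.8% (Elac2 -0.63 ± 0.09 (SE), Hsd17b10 -0.30 ± 0.06 (SE), Twnk -0.21 ± 0.05 (SE) and Polg -0.17 ± 0.05 (SE)). Of 7 regulators, Gabpa, the DNA-binding subunit of GABP, fell, at -0.39 ± 0.08 (SE), adjusted p = 0.00476, its partner Gabpb1 rose by 0.30 ± 0.07 (SE), adjusted p = 0.00731 (median-scaled change 0.23), Ppargc1b fell, at -0.31 ± 0.07 (SE) and Myc, detected on 6 arrays, at -0.24 ± 0.06 (SE), while Nrf1 changed by 0.14 ± 0.05 (SE), adjusted p = 0.0599. After median scaling the change of Myc was -0.06 and did not pass (adjusted p = 0.473 in limma).

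Set beside other large groups after quantile normalization, the members had a median change between that of the cytosolic ribosome and that of the respiratory chain. Of 58 genes for cytosolic ribosomal proteins 19 rose and 11 fell (median 0.07). Of 69 oxidative phosphorylation subunits 4 rose and 33 fell (median -0.18). After median scaling the median of the members was -0.36, and those of the other groups are not given here, so the order is that of 1 scaling. Some cytosolic ribosomal probes lie at the top of the signal range, such as Rplp1 at 16.05 in WT on each day, where a change may not show. The medians of these groups are descriptions, and the difference between them and the members was not tested.

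The lines were compared with WT over both days in the same fit. In the line labelled MMTR KD 1 member was higher (1.58% of all probes were) and 2 were lower (1.73% of all probes), and at an unadjusted p under 0.05 there were 10 higher and 13 lower, 23 of 73 against 20.4% of all probes. Mrpl34, which resembles a small bacterial protein of the large subunit, was 12.29 at d0 and 12.53 at d3 in WT, and 11.62 and 11.66 in MMTR KD. In the other lines it was 11.95 to 12.22 at d0 and 11.98 to 12.32 at d3, so that MMTR KD had the lowest value on each day. The difference from WT was -0.77 ± 0.13 (SE), adjusted p = 0.0274 in limma, or 1.70-fold lower.

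Mrpl36, likewise a small protein with a bacterial counterpart, was 12.28 in WT, 11.56 in MMTR-C, 11.84 in MMTR-N, 11.39 in MMTR-F and 11.14 in MMTR KD at d0. Its d3 libraries held 11.99 in WT, 11.65 in MMTR-C, 11.76 in MMTR-N, 11.58 in MMTR-F and 11.53 in MMTR KD. WT was the highest library on each day, most of all at d0, and MMTR KD the lowest, with a difference of -0.80 ± 0.15 (SE) and an adjusted p of 0.0328. Mrpl38 was 11.92 in WT, 12.28 in MMTR-C, 12.18 in MMTR-N, 11.80 in MMTR-F and 12.53 in MMTR KD at d0. On d3 the values were 12.29 in WT, 12.36 in MMTR-C, 12.46 in MMTR-N, 12.19 in MMTR-F and 12.72 in MMTR KD. MMTR KD was highest on each day (0.52 ± 0.10 (SE), adjusted p = 0.034), but a second, dimmer probe of this gene read -0.20. Against MMTR-C in place of WT the differences of the line labelled MMTR KD were -0.50 for Mrpl34, -0.27 for Mrpl36 and 0.30 for Mrpl38, and none of the 3 passed (adjusted p = 0.102, 0.418 and 0.172 in limma). With normexp background correction 0 members passed, while the differences stayed as large, at -0.82 for Mrpl34, -0.87 for Mrpl36 and 0.54 for Mrpl38 (adjusted p = 0.0814, 0.0872 and 0.123 in limma). After median scaling 7 members passed, all lower, among them Mrpl34 and Mrpl36, but Mrpl38 was lost at 0.31 (adjusted p = 0.103), and over the mean of its probes it was 0.16 (adjusted p = 0.319). Mrpl18 missed the threshold at -0.63 ± 0.14 (SE) and an adjusted p of 0.0513.

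In the 3 other lines no member passed in limma. All probes called higher and lower were 0.0506% and 0.0225% in MMTR-N, 0.0225% and 0.0225% in MMTR-F and 0.00563% and 0.0113% in MMTR-C. At an unadjusted p under 0.05 there were 13 members in MMTR-N, 16 in MMTR-F and 12 in MMTR-C, against 14.7%, 15.4% and 9.01% of all probes. On simulated data with the same number of probes, 50 of them changed at each size, the fit recovered 28% of differences of 0.5 in MMTR KD and 90% of those of 1. The adjusted threshold depends on how many probes change, and in the measured data 281 probes were called higher and 307 lower in MMTR KD. These shares therefore do not give the recovery in the measured comparisons. A member without a call can still differ from WT.

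**Figure D4:**
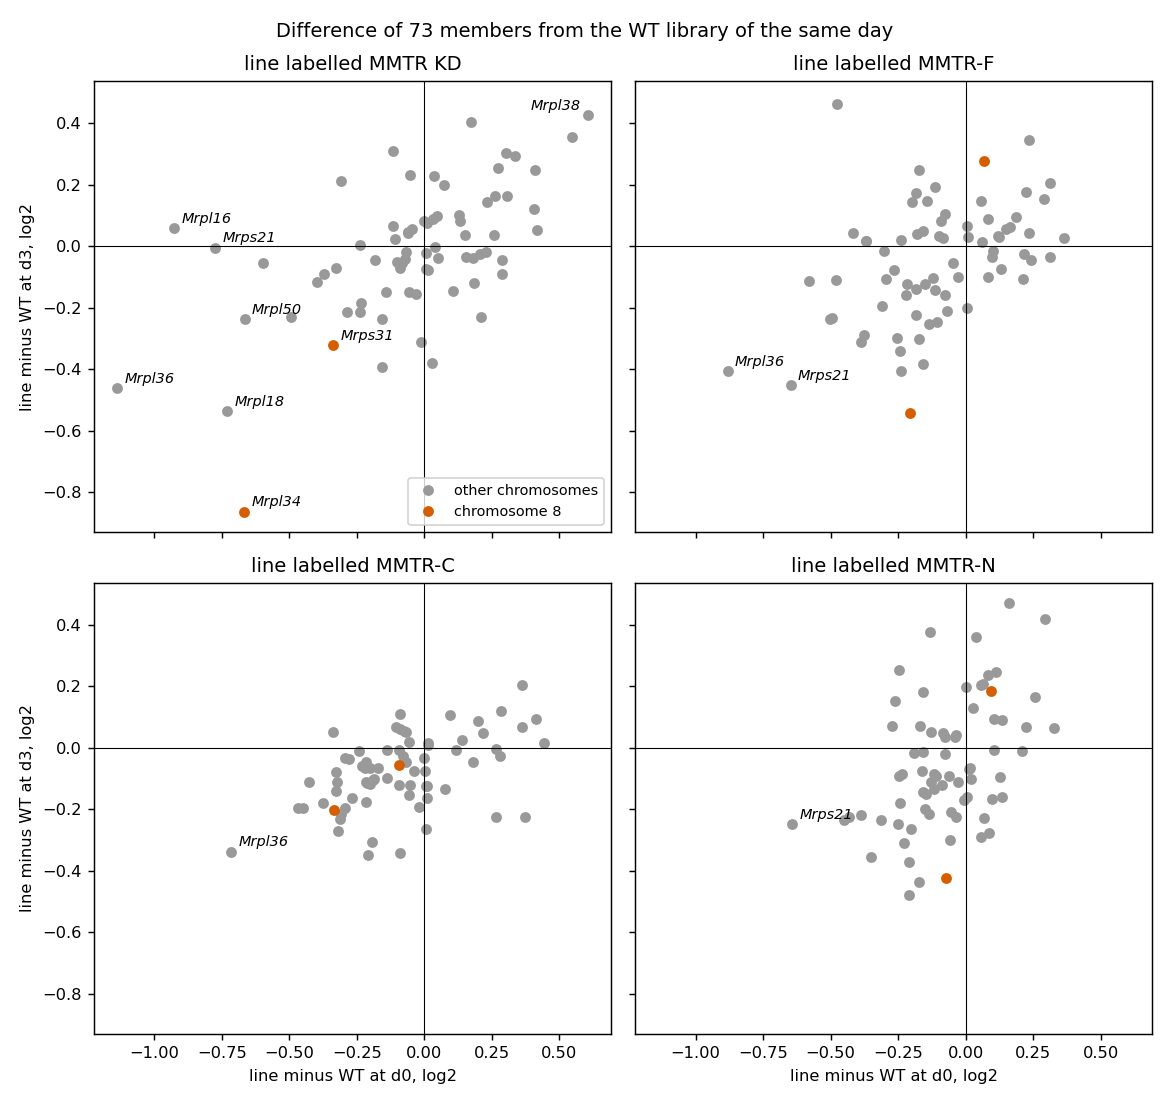
Difference of each of the 73 members from the WT library of the same day, at d0 (x axis, log2) and at d3 (y axis, log2), in the 4 other lines, with members on chromosome 8 coloured and members past 0.6 on either day named, along with Mrps31 in MMTR KD. In MMTR KD the lowest member is Mrpl36 at d0 (-1.14) and Mrpl34 at d3 (-0.86).

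Single pairs of libraries carry no test, and all differences from WT on a day share 1 WT library. At d0, 9 members in MMTR KD differed from WT by 0.5 or more (9.64% of all probes did), as did 4 in MMTR-F (5.19%), 1 in MMTR-N (3.23%) and 1 in MMTR-C (4.80%). At d3 the counts in the same order were 2 (6.22%), 1 (7.13%), 0 (8.35%) and 0 (0.990%). In MMTR KD at d0 the lowest were -1.14 for Mrpl36 and -0.93 for Mrpl16 and the highest 0.60 for Mrpl38 and 0.55 for Mrpl30, and at d3 those past 0.5 were -0.86 for Mrpl34 and -0.54 for Mrpl18. Mrps21 was lower than WT at d0 by 0.64 in MMTR-N and 0.65 in MMTR-F, where WT was the highest library. WT held the highest of the 5 values in 21 members at d0 and 20 at d3, and the lowest in 5 on each day. The same share over all probes is not given here, so these counts are not read as a trait of the members. Between d3 and d0, 11 members in WT (18.1% of all probes), 7 in MMTR-C (18.2%), 9 in MMTR-N (17.4%), 8 in MMTR-F (13.4%) and 12 in MMTR KD (16.6%) passed 0.5, all of them falls except Mrps21 in MMTR KD and Mrps34 in MMTR-F.

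The differences of the line labelled MMTR KD were also counted by chromosome. Of 528 named genes on chromosome 8, 112 were lower than WT (21.2%), with a median difference of -0.31. Both members on that chromosome were lower, Mrpl34 as above and Mrps31, a mitochondria-specific protein of the small subunit, at -0.33 ± 0.08 (SE) without passing (adjusted p = 0.0775). Mrps31 was 13.00 in WT and 12.67 in MMTR KD at d0, and 12.75 and 12.43 at d3, and MMTR KD was the lowest library on each day. Of 4 other genes of the mitochondrial translation lists on chromosome 8, 3 were called lower in that line (Pdf at -0.73 and Cars2 at -0.82, adjusted p = 0.0223 for each, and Ddx28 at -0.46, adjusted p = 0.0313). Elsewhere the members did not always move with the other genes of their chromosome. On chromosome 1, 36 of 467 named genes were higher and none lower (median 0.18), and the 4 members had a median of 0.29. On chromosome 14, 30 of 334 were higher and none lower (median 0.12), and the 3 members had a median of -0.04. On chromosome 16, 29 of 297 were higher and none lower (median 0.12), and the 3 members had a median of -0.01. None of these 10 members passed. Mrpl36 lies on chromosome 13 and Mrpl38 on chromosome 11. The part of the chromosome in the value of Mrpl34 was not tested.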

How the data were processed

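Each of 10 libraries, 1 per line and day, was read on an Illumina mouse bead array. Deposited by the authors were the bead signal (intensity) of 45281 probes and a detection p-value for each, exported with BeadStudio 3.2 per the labels and with GenomeStudio per the methods, without background subtraction (lowest signal 139). A second deposited table holds the authors' own log2 values, quantile normalized after a detection filter (16652 probes), and was used here as an alternative. They lay within 0.044 of log2 and quantile values computed from the same signals. The series text speaks of duplicates, and 1 column per line and day was found. No sample column was left unused.

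The 17775 probes that passed a detection p of 0.05 on 5 or more arrays entered the work, as log2 signals with quantile normalization over these probes. Genes were named from the platform annotation supplied, and 3487 kept probes have no name there. Tests used limma 3.58.1 in R 4.3.3, with line and day as terms (4 residual and 4.06 prior degrees of freedom), two-sided, with Benjamini-Hochberg adjustment over all kept probes. Each line stands once at each day, so the line term pairs the 2 days of a line. The fit was tested on simulated data with 50 probes changed at each size, where it recovered 8% of day changes of 0.25, 80% of 0.5 and 98% of 1. In the measured data far more probes changed with the day (4259 called higher and 4398 lower), which alters the adjusted threshold. The simulated shares thus do not give the recovery there. Tables and plots used Python 3.11.15 with pandas 2.3.3.

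Single pairs of libraries were not tested, and differences of 0.5 or more were counted. Promoters were taken from RefSeq (GRCm38.p6). The members, gene lists and rules were chosen with earlier results of these data known. Genes were named by rule: the 8 largest rises and falls, members called in a line, the 2 highest and 2 lowest past 0.5 in a line and day, up to 4 called genes of each list, members on chromosome 8, and a fixed set of members whatever their values (Mrpl3, Mrpl12, Mrpl44, Mrpl45, Mrps12, Mrps16, Mrps22, Mrps30, Mrps34, Mrps18a, Mrps18b and Mrps18c). Nrf1, Sall4, Mrpl58, Mrpl10, Mrps25, Mrpl14 and Mrps6 were named after their values were seen. Others named outside the rule were Dmap1, Mrpl11, Mrpl15, Mrpl46, Mrps11, Mrps27, Ddx28 and Rplp1. Alternatives covered background correction, scaling, filters, probes, variance prior, comparison line, the line term, thresholds and each line left out.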

Additional observations from a re-analysis of the deposited data

Results flagged for a closer look

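3 values stood far from the other 4 libraries of their day, by Dixon's criterion for 5 samples, out of 74 sets of 5 libraries tested for 37 members, where chance alone flags about 1 in 20 sets. At d3, Mrpl30 was 11.44 in MMTR KD, with the nearest other library at 11.10. Mrpl44 was 10.33 in MMTR-N at d3, with the nearest at 10.79, and Mrpl48 was 10.30 in MMTR-N at d3, with the nearest at 10.16. Each is 1 library.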

How the results depend on the processing

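After quantile normalization 10 members rose and 31 fell. The number that rose was 0 after median scaling, 4 with normexp background correction, 2 without the line term that pairs the days (the replicate block), 3 at a threshold of 0.01 and 5 with the methods' one-tailed test after Benjamini-Hochberg adjustment, and 6 to 9 with 1 line left out (6 without MMTR KD, without MMTR-C or without MMTR-N). The number that fell was 43, 23, 25, 19 and 28 in the same order, and 23 to 28 with 1 line left out. The shares of all probes called under these settings are not given here. Of the 31 falls, 22 were called in every fit with a line left out, and of the 10 rises, 4. In the line labelled MMTR KD the 3 calls became 0 with normexp, 7 after median scaling, 1 against MMTR-C, 1 to 4 with another line left out (1 without MMTR-F), 0 at a threshold of 0.01 and 8 at 0.1. In MMTR-N 1 member passed against MMTR-C. Median changes between the days after median scaling were -0.37 in WT, -0.29 in MMTR-C, -0.36 in MMTR-N, -0.25 in MMTR-F and -0.26 in MMTR KD, with normexp -0.18 in WT and -0.19 in MMTR-C, and -0.17 in WT over the mean of all probes. Median differences from WT after median scaling were, in the order MMTR-C, MMTR-N, MMTR-F and MMTR KD, -0.22, -0.15, -0.25 and -0.17 at d0 and -0.12, -0.19, -0.13 and -0.12 at d3. Of 29 day changes above 0, 21 turned below 0 after median scaling, among those named Mrps30 (-0.015), Mrpl12 (-0.029), Mrpl13 (-0.053), Mrps10 (-0.073), Mrps18a (-0.070), Mrpl16 (-0.13), Mrpl34 (-0.13), Mrpl36 (-0.16) and Mrps18b (-0.20), over the mean of all probes for Mrpl13 (-0.22) and Mrps18b (-0.024), and with a line left out for Mrpl36 (-0.021 without MMTR KD, in a range of -0.021 to 0.15) and Mrpl16 (-0.074 without MMTR KD and -0.062 without MMTR-F, in a range of -0.074 to 0.17). The cause was not tested. The other filters and probe choices, the deposited log2 table and the variance prior with a trend kept each of these counts within 1.5 times.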

Other observations

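Mrpl46 and Mrps11 lie next to each other on chromosome 7, with 41 bases between the 2 genes in GRCm38.p6. Mrps11 fell between d0 and d3 (-0.25, adjusted p = 0.0174 in limma) and Mrpl46 changed by -0.07 without passing (adjusted p = 0.395). A second probe of Mrps11 changed by 0.05 without passing (adjusted p = 0.576 in limma). The difference between Mrps11 and Mrpl46 was not tested.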
